A study of Rattus norvegicus with 6 samples.

Results

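Zinc transporters and metallothioneins were examined in the renal cortex of rats given ethylenediamine dihydrochloride or water. The set held 10 genes, 8 of which were among the 11530 named genes tested in the series, chosen by name with earlier results of these arrays known: the zinc importers Slc39a4, Slc39a5, Slc39a8, Slc39a10 and Slc39a14, the exporters Slc30a1, Slc30a2 and Slc30a10, and the metallothioneins Mt1 and Mt2A. Every probe whose transcript accession mapped to one of these symbols was taken, which gave 20 probes for 9 genes. No probe on the array mapped to Slc39a10, the single probe for Slc30a10 was not well above background on any array, and the other 8 genes had 17 probes that passed the filter on dim probes. Because the choice was made with the contrast of treated against water rats in view, the differences of these 10 genes are given as a description, without a test.

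Each group held 3 male Sprague-Dawley rats (Crl:CD(SD)), bought at 5 weeks of age and kept on a basal diet. One group received water for 4 weeks and the other ethylenediamine dihydrochloride, a salt of a small metal-binding diamine, at 500 mg/kg/day for 4 weeks. Total RNA of the cortex was hybridised to 6 Agilent 1-colour arrays, 1 per animal. The cortex is a mixture of cells, so fewer cells of a type and less RNA per cell cannot be told apart in any value below.

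Zinc enters the cytosol through ZIP importers, encoded by Slc39a genes, and leaves it, toward the outside or into vesicles, through ZnT exporters, encoded by Slc30a genes. Metallothioneins are small cysteine-rich proteins that bind zinc, copper and cadmium in the cytosol and are abundant in the kidney. The zinc-sensing transcription factor MTF-1 binds metal response elements in the promoters of Mt1, Mt2A and Slc30a1 and raises their transcription when cytosolic zinc is ample, whereas Slc39a4 messenger and protein are known to accumulate in the intestine when zinc is scarce.

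The sequences before the transcript starts of the 3 textbook MTF-1 targets in the set are shown, because their arrays are read below against those of the importers. They come from RefSeq in build GRCr8, run 5′ to 3′ on the strand of the gene for the 250 bases before the start, and carry the metal response core in capitals. The core was searched as TGCACNC and TGCGCNC on both strands, with overlapping matches counted as 1.
Mt1, chr19:10832976-10833225, minus strand: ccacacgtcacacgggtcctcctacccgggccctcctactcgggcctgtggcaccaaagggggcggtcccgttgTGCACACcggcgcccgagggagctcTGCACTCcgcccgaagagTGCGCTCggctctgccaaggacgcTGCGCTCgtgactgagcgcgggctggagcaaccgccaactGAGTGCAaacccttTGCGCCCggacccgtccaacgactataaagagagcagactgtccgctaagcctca
Mt2A, chr19:10838709-10838958, minus strand: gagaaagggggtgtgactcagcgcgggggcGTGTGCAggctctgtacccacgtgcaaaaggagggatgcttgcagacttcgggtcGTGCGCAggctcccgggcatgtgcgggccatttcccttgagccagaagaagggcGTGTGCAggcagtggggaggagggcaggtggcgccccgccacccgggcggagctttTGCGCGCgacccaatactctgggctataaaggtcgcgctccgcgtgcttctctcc
Slc30a1, chr13:106021769-106022018, plus strand: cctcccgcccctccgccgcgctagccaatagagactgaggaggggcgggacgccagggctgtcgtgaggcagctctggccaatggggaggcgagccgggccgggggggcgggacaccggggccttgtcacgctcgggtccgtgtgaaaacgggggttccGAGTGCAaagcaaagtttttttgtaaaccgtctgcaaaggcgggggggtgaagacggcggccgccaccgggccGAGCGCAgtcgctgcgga

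Mt1 held 6 matches, Mt2A 4 and Slc30a1 2. Matches were counted in windows of 300 bases that run from 250 before to 50 after the start. At least 1 match was held by 24.2% of 33465 rat promoters, at least 2 by 5.39% and at least 3 by 1.13%. At least 4 were held by 0.257% and at least 6 by 0.0299%. Of the 10 genes, 7 had a promoter in the table, and Slc39a4, Slc39a14 and Slc30a10 had none, so their promoters were not searched. Slc30a2 has 2 annotated starts, of which the first window held 3 matches and the second 0. The windows of Slc39a5, Slc39a8 and Slc39a10 held 0. Of importers outside the set, Slc39a7 held 3, Slc39a13 2, and Slc39a1 and Slc39a11 1 each. Slc39a2, Slc39a3, Slc39a6, Slc39a9 and Slc39a12 held 0. A match is a stretch of letters and not a measured binding site, and its absence says only that these letters are not in the window. Mt1 and Mt2A are neighbours on the minus strand of chromosome 19, with 5733 bases between their starts, and Mt3 and Mt4 lie in the same cluster.

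**Figure D1:**
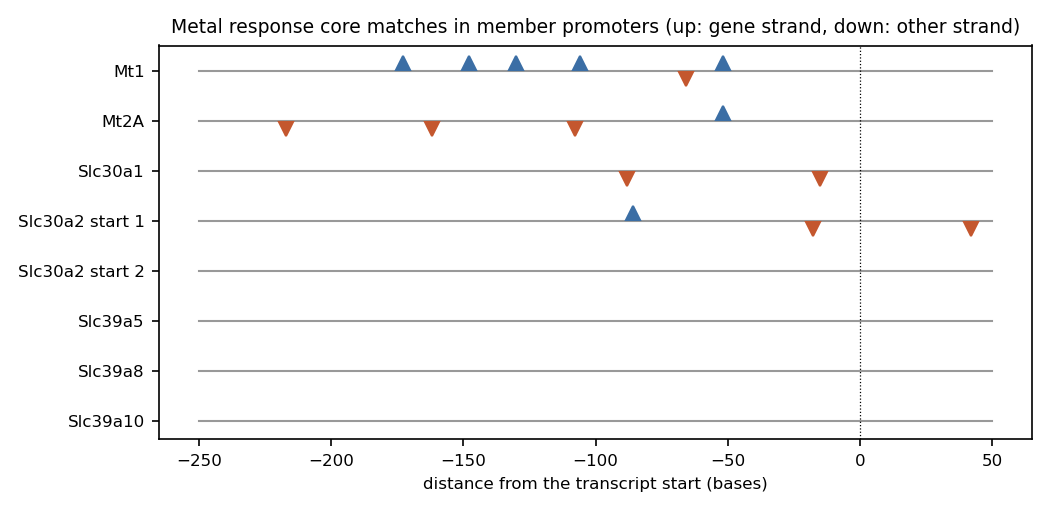
Position of metal response core matches in the promoter windows of the 7 member genes that had one, as distance in bases from the transcript start (dotted line); triangles point up for matches on the strand of the gene and down for the other strand. Mt1 carries 6 matches and Mt2A 4, while both Slc39a5 and Slc39a8 carry 0.

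Signals are given as log2 of the processed intensity minus the 75th percentile of the array, so that 0 is the level of the 75th percentile. The arrays had 35691 to 40843 probes well above background and correlated with each other across genes at Pearson's r of 0.9897 to 0.9944. The 3 water arrays and ethylenediamine replicate 1 were on slide 1, and ethylenediamine replicates 2 and 3 on slide 2, which was scanned separately. Values within slide 1 therefore rest on 1 treated array. Ethylenediamine replicate 1 had the fewest probes above background, and its probes that were below background on all arrays had a median of -6.53, against -7.55 to -7.23 on the other 5. All 10 proximal tubule markers listed for a check of the tissue were measured. Their summed level was 1820 to 1900 times the 75th percentile in water and 1810 to 1880 in treated cortex. By limma 1 of the 10 was lower at an unadjusted p under 0.05, as were 4.97% of all genes tested. Of markers of neighbouring tissue, 2 of 6 adrenal genes were measured (Star, Cyp11a1, Cyp11b1 and Mc2r did not pass the filter). Their summed level was 0.586 to 0.624 in water and 0.766 to 0.885 in treated cortex, which did not overlap. Of all genes tested, taken singly, 9.2% were higher on every treated array than on every water array. No such share was computed for sums of genes. By limma 1 adrenal gene was higher at an unadjusted p under 0.05, as were 5.39% of all genes tested. Of 6 inner medulla and papilla markers 4 were measured (Upk3a did not pass the filter and Fxyd4 had no probe), 1 of them higher at that level. Their summed levels were 1.44 to 1.63 in water and 1.39 to 1.99 in treated cortex. Of 6 adipocyte markers 3 were measured (Fabp4 and Lep did not pass the filter and Plin1 had no probe). Their median log2 fold change was 0.49, with summed levels of 1.18 to 1.22 in water and 0.95 to 1.88 in treated cortex.

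By the brightest probe of each gene, the mean signal of the importer Slc39a4 in ethylenediamine-treated cortex was 2.23-fold that in water. The other 7 measured genes lay between 0.937-fold and 1.14-fold on that probe. Both metallothioneins and the MTF-1 target Slc30a1 stayed within 1.09-fold of water on these probes. Dimmer kept probes reached 1.16-fold for Mt2A, 0.927-fold and 1.15-fold for Slc39a8, and 1.21-fold and 1.68-fold for Slc39a14. Of the 8 measured genes, 1 was higher on every treated array than on every water array and 0 were lower on every one, where 9.2% of all genes tested were higher in that way and 8.27% lower. By limma, 0 of the 11530 genes, the 8 included, passed an adjusted p of 0.05 (0%), and 1194 genes (10.4%) had an unadjusted p under 0.05. Since the contrast entered the choice of the genes, nothing is read from these counts.

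**Figure D2:**
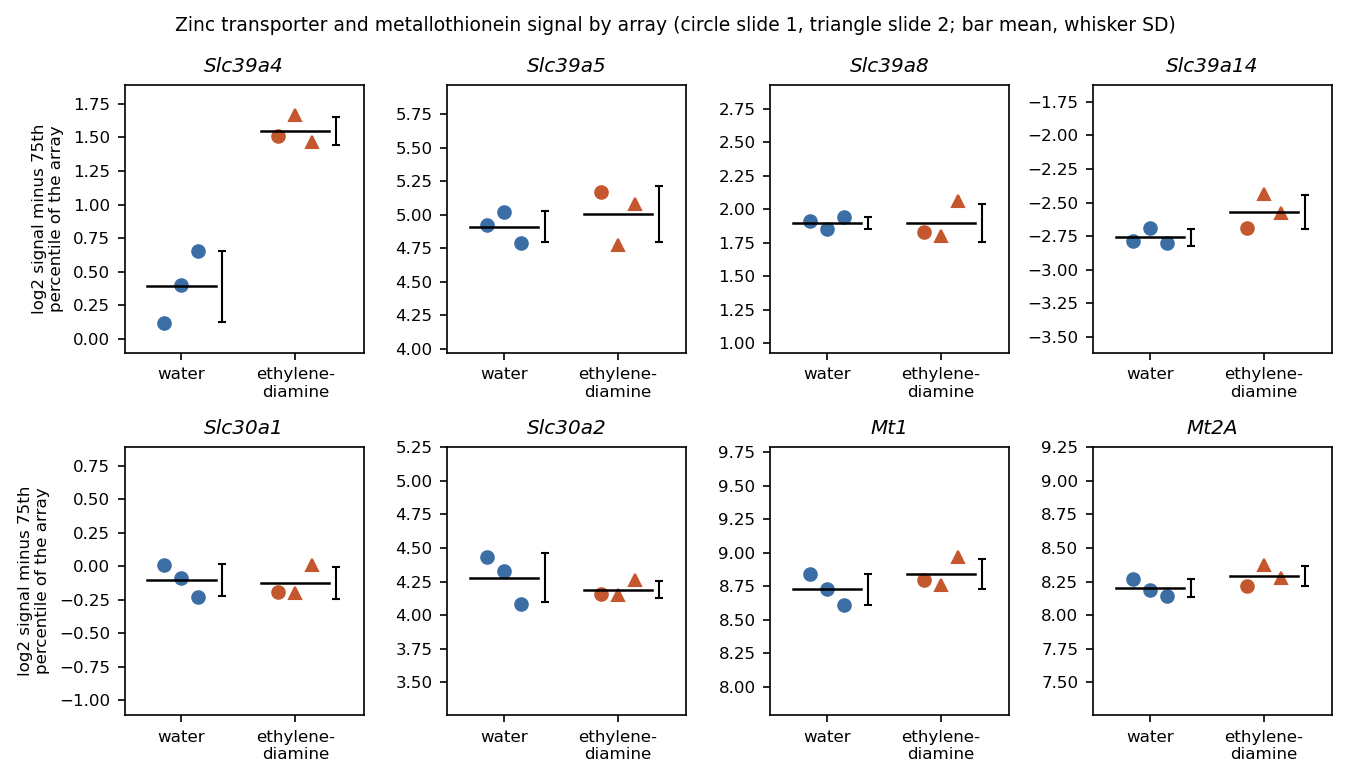
Log2 signal of the brightest probe of each measured member on the 6 arrays, in panels that all span 2 log2 units; points are arrays (circles slide 1, triangles slide 2), horizontal bars group means and whiskers the SD of 3 arrays. The treated arrays of Slc39a4 lie at 1.47 to 1.67 and its water arrays at 0.12 to 0.65, while the groups overlap in the other 7 panels.

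Slc39a4 encodes ZIP4, the importer of dietary zinc in the gut, which is mutated in acrodermatitis enteropathica. Its 1 probe, annotated to transcript NM_001077669, read 0.12, 0.40 and 0.65 on water replicates 1 to 3 and 1.51, 1.67 and 1.47 on ethylenediamine replicates 1 to 3. In unscaled processed intensity these were 989, 1130 and 1475 for water and 2543, 2838 and 2676 for treated rats. The groups did not overlap, and the lowest treated array stood 0.82 above the highest water array. The water mean was 0.39 ± 0.26 (SD, n = 3) and the treated mean 1.55 ± 0.11 (SD, n = 3), a log2 fold change of 1.16 ± 0.14 (SE of the limma fit, n = 3 per group). By size of difference it ranked 83 among the genes tested, with 0.711% of genes differing more. Since the gene was chosen with this contrast known, the rank is a description and not a test. The spread lay mainly in the water group, where replicate 1 was lowest and replicate 3 highest, and the 3 treated rats lay close together across both slides. Within slide 1 the log2 fold change was 1.11. With a single probe there is no second sequence on the array against which to set this value.

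The genes whose pattern over the 6 arrays was most like that of Slc39a4 were Tagln (Pearson's r of 0.9973), Nob1 (0.9887), B4galt7 (0.9864), Tfrc (0.986) and Snrpa1 (0.9841). These are descriptions over 6 arrays that share treatment and, in part, slide, and 54 genes had r above 0.95. Tagln, a contractile protein of smooth muscle, read -0.18, -0.07 and 0.16 on the water arrays and 0.73, 0.89 and 0.76 on the treated ones. It shared with Slc39a4 the order of the water arrays and the highest value on ethylenediamine replicate 2. Tfrc, the transferrin receptor for iron uptake, differed by 0.32 on the log2 scale, and Nob1 and Snrpa1, which act in ribosome assembly and splicing, by 0.15 and 0.16. Of 6 smooth muscle markers, a list that includes Tagln, 5 were measured (Cnn1 did not pass the filter). By limma 4 of them, Tagln among them, were higher at an unadjusted p under 0.05, as were 5.39% of all genes tested. The other, Actg2, had a log2 fold change of -0.15, with means of 2.50 in water and 2.35 in treated cortex. The median log2 fold change of the measured smooth muscle markers was 0.41, and their summed level was 7.38 to 9.85 in water and 8.79 to 9.29 in treated cortex. Of 6 intercalated cell markers, all measured, 3 were lower at an unadjusted p under 0.05, as were 4.97% of all genes tested. The summed level of the 6 was 154 to 190 in water and 122 to 140 in treated cortex. Of 6 distal convoluted and connecting tubule markers, 4 were measured and 3 of these were lower at that level. Pvalb did not pass the filter and Trpm6 had no probe. The summed levels of the 4 were 24.7 to 30.4 in water and 17 to 25.1 in treated cortex. All 6 principal cell markers were measured, 1 of them lower at that level. Their summed levels of 212 to 262 in water and 167 to 201 in treated cortex did not overlap, nor did those of the intercalated list. A sum gives most weight to bright genes, here Aqp2 (log2 fold change -0.57) and Atp6v1g3 (-0.43). The median log2 fold change was -0.12 for the principal cell list and -0.28 for the intercalated one. Of all genes tested, taken singly, 8.27% were lower on every treated array than on every water array. No such share was computed for summed lists. The part of these cell markers, and of the adrenal ones, in the Slc39a4 value was not tested. The summed level of the proximal straight tubule list was 312 to 355 in water and 316 to 392 in treated cortex.

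Slc39a5, an importer that sits on the basolateral side of epithelial cells in gut and pancreas, differed little. Its brightest probe read 4.92, 5.02 and 4.79 in water and 5.17, 4.77 and 5.08 in treated rats. The highest and the lowest of the 6 values were both treated arrays, and the log2 fold change was 0.10 ± 0.12 (SE). Within slide 1 it was 0.26, which rests on ethylenediamine replicate 1 alone, and without that array it was 0.02. A further probe of Slc39a5 read -1.24 to -0.86 in water and -1.15 to -0.91 in treated cortex, and its last probe was not above background on any array.

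Slc39a8, which encodes ZIP8, carries zinc, manganese and cadmium, and in the kidney has been placed in proximal tubule cells. Its brightest probe read 1.91, 1.85 and 1.94 in water and 1.83, 1.80 and 2.06 after treatment. Both group means were 1.90, and the SD was 0.04 in water and 0.14 in treated cortex. Its other probes went opposite ways, with log2 differences of -0.11 and 0.20, and their groups overlapped.

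Slc39a14, which encodes ZIP14, an importer of zinc, manganese and iron known to be induced in the liver by interleukin-6, had 4 probes, 3 of them kept. The brightest read -2.79, -2.69 and -2.80 in water and -2.69, -2.44 and -2.58 in treated rats, a log2 fold change of 0.19 ± 0.08 (SE), and the groups touched at -2.69. The next brightest read -3.07, -2.99 and -3.02 in water and -2.86, -2.60 and -2.80 in treated rats, which did not overlap and were 0.13 apart at the nearest. On both probes ethylenediamine replicate 2 was highest and ethylenediamine replicate 1 lowest of the treated arrays. The third kept probe had another order of the treated arrays: it read -1.95 on ethylenediamine replicate 1 and -3.79 to -3.23 on the other 5 arrays. Averaging the kept probes, that reading included, gave a log2 fold change of 0.41, and within slide 1 the brightest probe gave 0.07. The fourth probe was above background on 1 of 3 treated arrays and on none of the water arrays, so no fold is given for it. All 3 kept probes had a positive difference, at 0.19, 0.27 and 0.75, so that they shared a sign and differed in size.

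**Figure D3:**
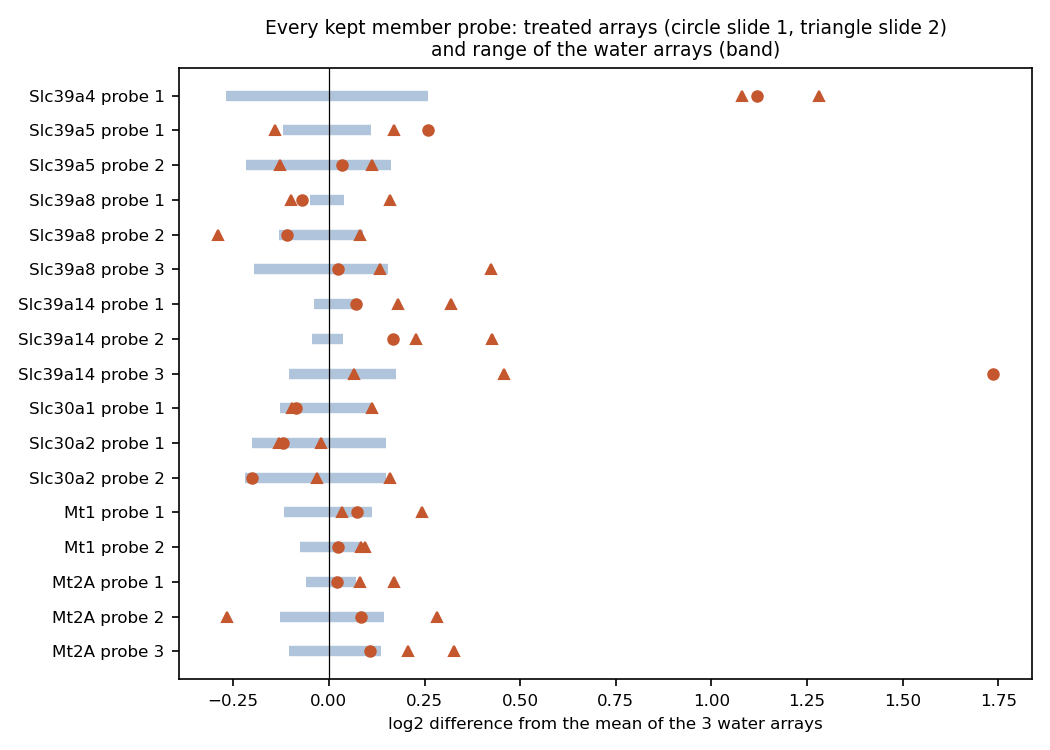
Log2 difference of each treated array from the water mean (circles slide 1, triangles slide 2) for the 17 kept probes of the 8 measured members, with the range of the 3 water arrays as a band; probes of a gene are numbered from bright to dim. The treated arrays of Slc39a4 lie far outside the water band, and 1 point of the third Slc39a14 probe stands apart from every other reading of that gene.

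Slc30a1 encodes ZnT1, the exporter of the plasma membrane and an MTF-1 target. Its 1 probe read 0.01, -0.09 and -0.23 in water and -0.19, -0.20 and 0.01 in treated cortex. The highest water and the highest treated array had the same value to 2 decimals, and the log2 fold change was -0.02 ± 0.09 (SE). The sign is not settled: it was positive without water replicate 1, ethylenediamine replicate 1 or ethylenediamine replicate 2, with values of 0.04, 0.01 and 0.02.

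Slc30a2 encodes ZnT2, which loads zinc into vesicles and secretory granules, and its 2 probes are annotated to different transcripts. The brighter, annotated to NM_012890, read 4.43, 4.33 and 4.08 in water and 4.16, 4.15 and 4.26 in treated cortex, a log2 fold change of -0.09 ± 0.10 (SE). The other, annotated to NM_001083122, read 2.89, 2.81 and 2.52 in water and 2.54, 2.71 and 2.90 in treated cortex. On the brighter probe the treated arrays lay inside the water range, and on the other they spanned nearly the same range as water, from 2.54 to 2.90. Among the water arrays, replicate 1 was highest and replicate 3 lowest on both Slc30a2 probes, on Slc30a1 and on every probe of Mt1 and Mt2A. On Slc39a4 the order of the water arrays was the opposite.

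Slc30a10, which exports manganese, gave -7.68 to -7.38 in water and -7.72 to -6.64 in treated cortex. All 6 readings were below background, the highest of them on ethylenediamine replicate 1, where probes below background stood higher in general, so no fold is given.

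Mt1 and Mt2A gave bright signals on all arrays. The brightest Mt1 probe read 8.84, 8.73 and 8.61 in water and 8.80, 8.76 and 8.97 in treated cortex, a log2 fold change of 0.12 ± 0.09 (SE). Its second probe read 8.59, 8.50 and 8.43 in water and 8.53, 8.60 and 8.59 in treated cortex. The groups overlapped on both Mt1 probes, and the highest value of the brightest probe was that of ethylenediamine replicate 3. The brightest Mt2A probe read 8.27, 8.19 and 8.14 in water and 8.22, 8.37 and 8.28 in treated cortex, a log2 fold change of 0.09 ± 0.07 (SE). Its other probes had differences of 0.03 and 0.21. On the one with 0.03 the treated arrays ran from 7.79 to 8.34, wider than the 7.93 to 8.20 of water. All 5 metallothionein probes thus differed by 0.03 to 0.21, and on each the groups overlapped. The spots were not flagged as saturated, and the raw median signal of the brightest Mt1 probe reached at most 62.6% of the saturation value of the scanner files. Within slide 1 the log2 fold change was 0.07 for Mt1 and 0.03 for Mt2A.

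The genes most like Mt1 over the 6 arrays were Slc10a6 (Pearson's r of 0.9871), Zfp385a (0.9868), Hipk1 (0.9803), Sult2b1 (0.9754) and Tubb3 (0.9747), with 16 genes above 0.95. Slc10a6 carries sulfated steroids and Sult2b1 sulfates them, and Tubb3 is a tubulin. All 5 were, like Mt1, lowest on water replicate 3 and highest on ethylenediamine replicate 3. They were picked for likeness to Mt1 over these same arrays, so the shared pattern is no further result. Tubb3 was dim, at -4.63 to -4.07, where the lowest signal well above background on ethylenediamine replicate 1 was -4.45. These 5 are not the genes that follow Slc39a4.

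The rest of the zinc pathway was read from a list of 23 further genes that held every other family member and the known sensors, whatever their values. Of these, 18 were tested and 5 were not: Slc39a13 and Slc30a6 had no probe, and Slc39a2, Slc30a8 and Mt4 did not pass the filter. By limma 0 of the 18 passed the adjusted threshold. At an unadjusted p under 0.05, 1 was higher and 0 lower, against 5.39% of all genes tested that were higher and 4.97% that were lower. The median log2 fold change of the 18 was 0.03, with 10 positive and 8 negative, and that of all genes was 0.00. On the brightest probe, the groups did not overlap for 2 higher genes, Slc39a1 and Slc30a4, and 1 lower gene, Mcoln1. Of all genes tested, 9.2% were higher in that way and 8.27% lower. For Slc30a4 the nearest arrays of both groups read -0.36 to 2 decimals.

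The 1 gene at an unadjusted p under 0.05 was Slc30a3, which encodes ZnT3, the carrier that loads zinc into synaptic vesicles of neurons. Its brighter probe read 0.41, 0.29 and 1.27 in water and 1.25, 1.46 and 1.65 in treated cortex, so that water replicate 3 lay among the treated arrays. The log2 fold change was 0.79 ± 0.28 (SE, n = 3 per group), with a 95% interval of 0.11 to 1.48, and by limma the unadjusted p was 0.0295 and the adjusted p 0.433, with a range of 0.348 to 0.812 over its alternatives. The dimmer probe differed by 0.20, with overlapping groups. Within slide 1 the value was 0.59. The log2 fold change was 1.1 without water replicate 3 and between 0.61 and 0.90 without any other single array. The unadjusted limma p was 0.0898 without water replicate 1, 0.0864 without water replicate 2, 0.0709 without ethylenediamine replicate 2 and 0.0876 without ethylenediamine replicate 3. Without water replicate 1 the 1 gene under 0.05 was Tmem163 instead (log2 fold change -0.59), and without water replicate 2 it was Slc39a12 (-0.71).

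By smallest p, the next were Tmem163, a zinc efflux protein of vesicles, Slc39a1, a ubiquitous importer of the plasma membrane, and Mcoln1, a lysosomal cation channel. Tmem163 had a log2 fold change of -0.38 (95% interval -0.86 to 0.10, limma adjusted p = 0.559), and its other probe gave -0.40. Slc39a1 stood at 0.16 (-0.05 to 0.37, limma adjusted p = 0.571), with treated arrays at 3.13 to 3.34 and water arrays at 2.94 to 3.11. Its dimmer probes differed by 0.00 and 0.15, with overlapping groups. Mcoln1 stood at -0.08 (-0.21 to 0.04, limma adjusted p = 0.607). None of these passed the adjusted threshold, and a p that misses it does not show that the groups are alike.

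The messenger of the zinc sensor Mtf1, which drives Mt1, Mt2A and Slc30a1, had a log2 fold change of 0.02 (95% interval -0.18 to 0.23). It was named after its value was seen, and the activity of the protein was not measured. The 7 other importers tested ran from -0.42, for Slc39a12, to 0.16, and the 5 other exporters from -0.05 to 0.79. All 4 further carriers, channels and sensors had negative estimates, from -0.38 to -0.08, with 0 at an unadjusted p under 0.05 by limma.

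**Figure D4:**
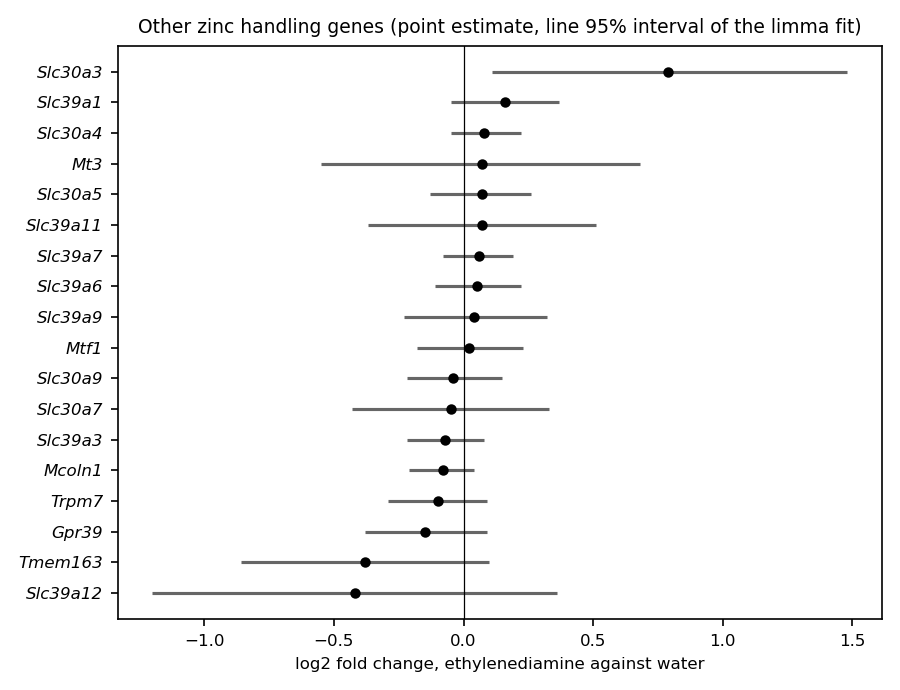
Log2 fold change of ethylenediamine against water for the 18 further zinc handling genes tested, with the 95% interval of the limma fit (3 arrays per group). Of these intervals 1, that of Slc30a3 at 0.11 to 1.48, lies wholly above 0.

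Over 17 alternatives the log2 fold change of Slc39a4 ran from 1.02 to 1.29, with both ends given by leaving out a water array. That of Mt1 ran from 0.06 to 0.18, that of Mt2A from 0.03 to 0.13, and that of Slc39a5 from 0.02 to 0.26. Slc39a14 ran from 0.07 to 0.41, the widest of the 8, and Slc30a2 from -0.20 to -0.02. Slc39a8 ran from -0.08 to 0.05 and Slc30a1 from -0.09 to 0.04, and for both the sign changed with the setting.

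**Figure D5:**
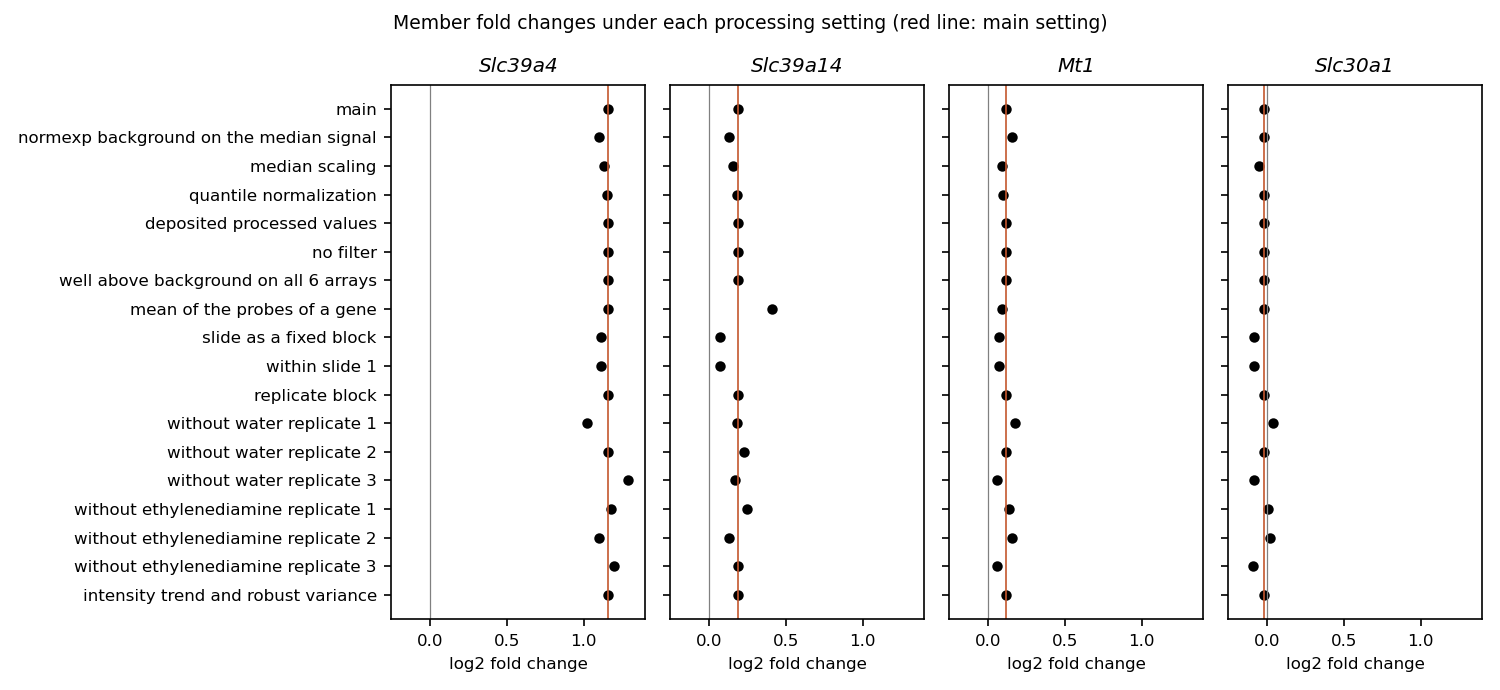
Log2 fold change of Slc39a4, Slc39a14, Mt1 and Slc30a1 (horizontal axes) under the main setting and 17 alternatives (rows), with the main value as a red line. Slc39a4 stays between 1.02 and 1.29, while Slc30a1 lies on both sides of 0.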

How the data were processed

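Renal cortex RNA of 3 water and 3 ethylenediamine rats was read on 1 array each. The members and gene lists were chosen with earlier results of these data known. Per the file headers, the authors' scanner files hold linear intensity per spot, with background subtraction and detrending done in Agilent Feature Extraction 10.7.1.1 (10.7 per the submitters' processing notes) on a grid of build rn4, not scaled between arrays. The deposited value table holds linear intensity divided by the 75th percentile of each array, as found by setting it against the scanner values; its column medians were 0.1076, 0.1053 and 0.1046 in the water group and 0.1062, 0.1104 and 0.1071 in the treated group, by replicate number. It served as an alternative.

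Control spots (1439) and 22 probes with an outlier flag were left out, which left 61515. Symbols came from transcript accessions through RefSeq (GRCr8), used for names, and named 28194 probes. A probe was kept if well above background on all 3 arrays of a group (37822), and the brightest kept probe stood for a gene. Treated and water arrays were fitted in limma 3.58.1 under R 4.3.3 (lmFit, eBayes, Benjamini-Hochberg adjustment over 11530 genes, threshold 0.05, 4 residual and 1.84 prior degrees of freedom). The fit was tested on simulated data. The number of arrays limits the precision.

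Named were every member, the 4 other zinc genes with the smallest p, and the 5 genes most correlated with Slc39a4 and with Mt1. Mtf1, Slc39a12, Slc30a4, Slc39a2, Mt3 and the genes named as unmeasured were named after their values were seen. Alternatives were normexp on the median signal (offset 50), median and quantile scaling, the deposited values, other filters, averaged probes, the slide, a replicate block, leaving out each array, and a robust variance trend. Labels share replicate numbers between groups but do not say that these pair animals.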

Additional observations from a re-analysis of the deposited data

How the results depend on the processing

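No gene passed the adjusted threshold in the main setting, and 12 of 17 alternatives also gave 0. The count was 10 with the slide as a fixed block, 6 within slide 1 and 1 with an intensity trend and robust variance, and ran from 0 to 1 when single arrays were left out (1 without water replicate 2 and 1 without ethylenediamine replicate 1). The count of other zinc handling genes at an unadjusted p under 0.05 was 1, and 0 with averaged probes, with the slide as a fixed block and within slide 1, and 0 to 1 when single arrays were left out (0 without ethylenediamine replicate 2 and 0 without ethylenediamine replicate 3). With the slide as a block the estimate is that of ethylenediamine replicate 1 against water, a lone array assumed to vary like the others. The causes were not tested. Slc39a4 moved by less than its spread between replicates (pooled SD 0.20) in all 17 alternatives, as did 6 of the other 7 measured members. Slc39a14 moved by more (pooled SD 0.10) with averaged probes (0.41) and with a slide block or inside slide 1 (0.07 each). With a replicate block, 0 genes passed and Slc39a4 stood at 1.16. Same-numbered samples did not deviate together (correlations of 0.00, 0.02 and -0.01 for numbers 1 to 3), so the numbers are not taken to pair the animals. The normexp alternative used the median spot signal. Genes near background, Slc30a10 among them, cannot be compared at this signal.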

Other observations

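Some genes of the zinc list read high on a single animal. Slc39a2, an importer, was above background on ethylenediamine replicate 1 alone, at -3.99, against -7.75 to -6.68 on the other 5 arrays. Mt3, the metallothionein best known from the brain, was highest on water replicate 2 with both of its probes, at -2.94 and -2.83, while its other arrays lay between -3.94 and -3.26. Slc39a12, an importer known from the nervous system, read -0.51 on water replicate 1 and -1.77 to -1.23 on the other 5 arrays. These readings were picked after their values were seen and were not tested.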
